A study of Mesocricetus auratus with 6 samples.

Results

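Translation initiation factors are the proteins that bring the initiator tRNA, the messenger RNA and the ribosomal subunits together before protein synthesis starts. They were followed here as the genes whose symbol in the platform annotation begins with Eif and a number from 1 to 6, without the Eif2ak kinases. A probe set (a group of short probes read as 1 value) was used only where the annotation gave it a single gene symbol. This gave 94 of the 22626 tested probe sets and 38 of the 12393 genes. The probe set with the highest mean over all 6 arrays stood for its gene, so for the 25 genes with several the probe set was chosen by its measured mean level, which is given here as a description only. The narrowest such choice was that of Eif2b2, with means of 7.28 and 7.16. The widest set of probe sets was that of Eif2s2, with 6.

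The samples were uteri of pregnant golden hamsters (Mesocricetus auratus), untreated, on day 5 of pregnancy. Total RNA of 3 implantation sites, where a blastocyst has attached, and of 3 interimplantation sites, the uterine wall between them, was hybridised to an Affymetrix mouse array, with RNA from 3 animals. The sources used here give neither strain nor age, nor whether same-numbered arrays of both groups share an animal. The 3 animals may therefore be the number per group or in all. The main comparison had group as its only term, so its p-values treat every array as an independent sample. If the groups share animals, that assumption does not hold. All levels are log2 RMA signals (robust multi-array averaging, a normalised array signal), and a difference is the implantation mean minus the interimplantation mean on that log2 scale. A gene was called higher or lower when its adjusted p in limma, with Benjamini-Hochberg adjustment over all 22626 probe sets, was under 0.05. Because the probes were designed on mouse sequence, a mismatch with hamster RNA can lower a signal or shrink a difference.

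Initiation follows an ordered path. The factor eIF2 carries the initiator tRNA and GTP to the small ribosomal subunit, to which eIF1, eIF1A, eIF3 and eIF5 bind. The eIF4 factors recognise the cap of the messenger RNA and unwind its leader, and eIF5B joins the large subunit. Phosphorylation of eIF2 and the binding proteins of eIF4E are the classical points of control. In the rodent uterus, attachment of the blastocyst is followed by growth and differentiation of the stroma into decidua.

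The array medians ran from 4.55 to 4.57. Stromal markers of the uterus were measured in both groups, with 6 of 8 brighter than the brightest Bacillus control probe set (5.79), to which no hamster RNA corresponds. The mean log2 signal over these 8 stromal markers ran from 6.45 to 6.52 on the implantation arrays and from 6.39 to 6.60 on the interimplantation arrays. Single stromal markers went both ways, 3 up and 5 down, from 0.58 for Hand2 to −0.29 for Vim, and 0 were called. Other marker lists moved with the comparison. The mean over 13 epithelial markers was 5.16 to 5.27 at the sites and 5.42 to 5.54 between them, with 3 called lower and 0 higher. For 9 smooth muscle markers it was 5.41 to 5.67 against 5.91 to 6.18, with 2 called lower and 0 higher. The called markers were Actg2 (−1.74) and Tagln (−1.26). Of the 9, 7 were negative and 2 positive, Myh11 (0.059) and Des (0.13). For 8 proliferation genes the mean was 5.49 to 5.57 against 4.68 to 5.00, with 6 called higher and 0 lower. None of the 7 leukocyte, 6 endothelial or 7 trophoblast and embryo markers was called by limma (2 of these 20 had an unadjusted p under 0.05). The trophoblast and embryo list was at 4.15 to 4.20 at the sites and 4.20 to 4.28 between them. Fewer markers of these other lists exceeded the brightest Bacillus control: 5 of 13 epithelial, 4 of 9 smooth muscle and 2 of 8 proliferation genes. The same held for 2 of 7 leukocyte, 2 of 6 endothelial and 1 of 7 trophoblast and embryo markers. Dim markers can still be called, as some of the proliferation genes were. The absence of calls in the leukocyte, endothelial and trophoblast and embryo lists does not show that they were unchanged. In whole tissue, a change in the number of cells of a type and a change of RNA per cell cannot be told apart, and the part of these lists in the results below was not tested.

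At the implantation site, 6 of the 38 initiation factor genes were higher and 1 was lower, against 1.36% and 1.18% of all genes. The 6 were Eif5a, Eif4a1, Eif6, Eif3d, Eif2s2 and Eif3i, from 1.90-fold to 1.30-fold, and the lower gene was Eif4a2, at 1.51-fold lower. The called genes thus came from eIF2, eIF3, eIF4, eIF5A and eIF6, 1 or 2 genes from each. The other 31 genes did not pass. The groups did not overlap for 13 members with a higher and 3 with a lower mean at the site, beside 8.02% and 12.1% of all genes. The differences of the 38 members lay on both sides of 0, with 21 positive and 17 negative, and their median was 0.012, beside −0.020 for all genes. All 7 called genes lay among the 27 members brighter than the brightest Bacillus control. Of all genes above that level 6.1% were called, and of the members above it 25.9%.

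**Figure D1:**
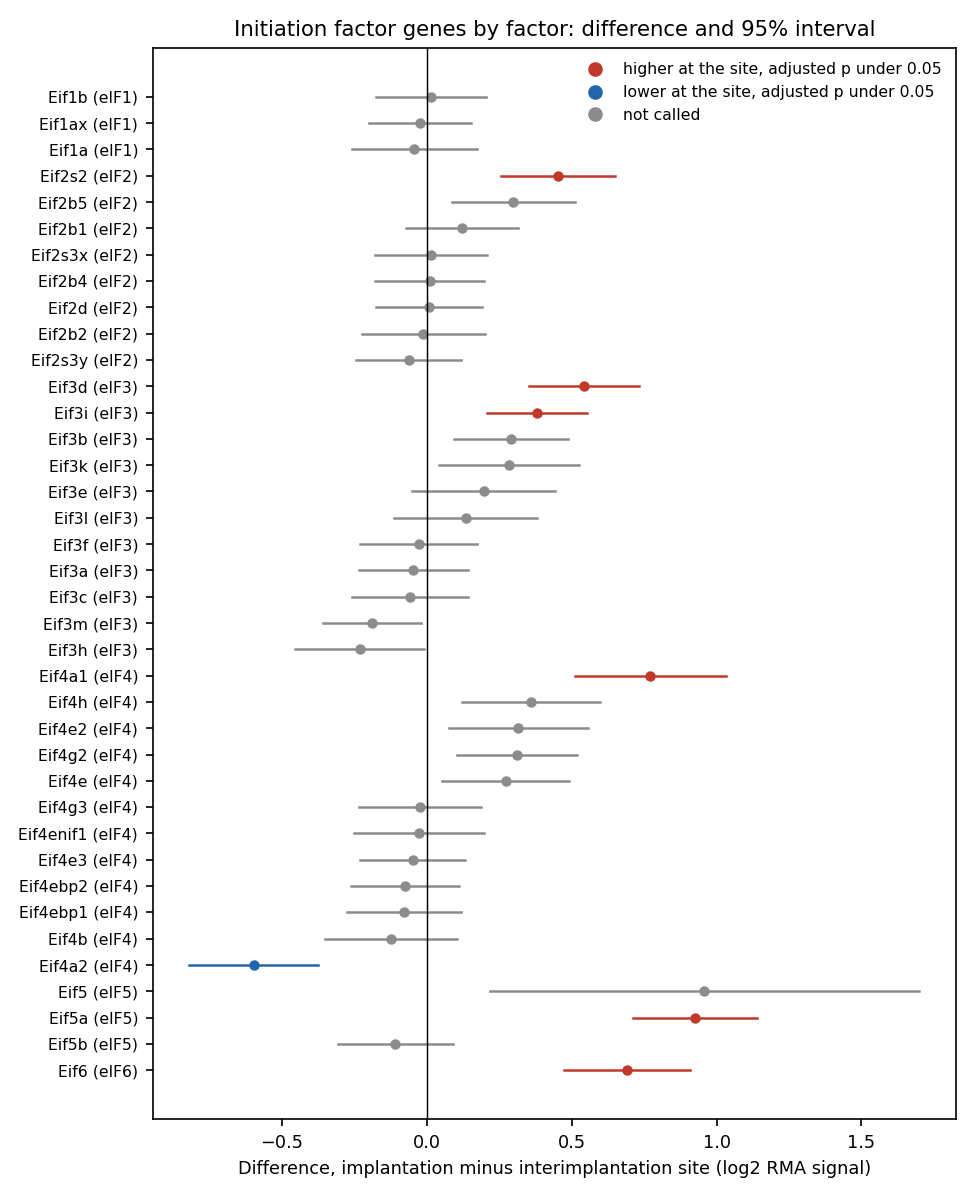
Difference between implantation and interimplantation sites (log2 RMA signal, implantation minus interimplantation) for the 38 initiation factor genes, ordered by factor, with 95% intervals of the limma fit as lines. The 6 genes called higher are red, Eif4a2, called lower, is blue, and the 31 genes not called are grey. Called and uncalled genes are not separated by size: uncalled Eif5 (0.96) exceeds every called gene, and uncalled Eif4h (0.36) lies beside called Eif3i (0.38).

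The largest difference among the called genes was that of Eif5a. It encodes eIF5A, a factor that helps the ribosome form peptide bonds and is the protein known to carry the modified amino acid hypusine. Its level was 9.78, 9.78 and 9.74 on implantation arrays 1, 2 and 3 and 8.63, 8.92 and 8.96 on interimplantation arrays 1, 2 and 3. The implantation arrays lay within a narrow band, and all were well above the highest interimplantation array. Eif5a rose by 0.93 (SE 0.098, adjusted p = 7.09e-04 in limma), from 8.84 ± 0.18 to 9.76 ± 0.022 (SD, n = 3). Its other probe set, at 8.70, 8.38 and 8.80 against 7.63, 7.72 and 7.88, gave 0.88 (adjusted p = 0.00203). Both probe sets are of the kind that can also take up related transcripts. With the level of the hybridisation controls of each array added to the model, Eif5a was the only member whose brightest probe set was still called (0.78, adjusted p = 0.0254). Dimmer probe sets of Eif4a1 (0.74, adjusted p = 0.0435) and Eif2s2 (0.81, adjusted p = 0.0453) also passed in that model.

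Hypusine is made on eIF5A in a pair of enzymatic steps, and both enzymes were measured. Dhps, deoxyhypusine synthase of the opening step, was at 6.03, 5.77 and 6.05 at the sites and at 5.39, 5.48 and 5.47 between them. These groups did not overlap, and Dhps rose by 0.50 (SE 0.094, adjusted p = 0.0153 in limma). Leaving out implantation array 1 or 3 ended the call (adjusted p = 0.0991 and 0.0943). So did averaging its probe sets (0.27, adjusted p = 0.0755). Dohh, the hydroxylase that completes hypusine, was at 3.92 ± 0.078 against 4.05 ± 0.16 (SD, n = 3), a difference of −0.13 that did not pass (adjusted p = 0.627). By their means over all arrays, both Dhps (5.70) and Dohh (3.99) were dimmer than the brightest Bacillus control.

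Among the eIF4 genes, the helicase of the cap-binding complex is encoded by a pair of close paralogs, Eif4a1 and Eif4a2, and these moved in opposite directions. Eif4a1 was at 10.69, 10.57 and 10.49 at the sites and at 9.53, 10.01 and 9.91 between them. Every implantation array exceeded every interimplantation array, and interimplantation array 1 was the lowest. Eif4a1 rose by 0.77 (SE 0.12, adjusted p = 0.00506 in limma), which is 1.71-fold. The next probe set of Eif4a1, at 9.18, 8.99 and 8.88 against 7.89, 8.26 and 8.07, rose by 0.95 (SE 0.11, adjusted p = 0.00121). The dimmest of its 3, at 6.19, 6.18 and 6.40 against 5.95, 5.79 and 5.93, gave a difference of 0.37 without a call (adjusted p = 0.0667). The groups did not overlap in any of the 3.

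Eif4a2 had a single probe set, at 8.47, 8.43 and 8.19 at the sites and 8.84, 8.93 and 9.11 between them. Here each implantation array lay below each interimplantation array. Eif4a2 fell by 0.60 on the log2 scale (SE 0.10, adjusted p = 0.00917 in limma), from 8.96 ± 0.13 to 8.36 ± 0.15 (SD, n = 3). The direction of Eif4a2 holds relative to the other probe sets: with each array scaled to its hybridisation controls, the difference was −0.20 and not called (adjusted p = 0.387), while that of Eif4a1 was 1.17 (adjusted p = 1.91e-05). Without implantation array 3 Eif4a2 was at −0.51 and missed the threshold (adjusted p = 0.0553). With probes of mouse sequence, the signals of the paralogs cannot be compared in level.

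The partners of the helicase did not pass. Eif4h and Eif4b encode proteins that stimulate it. Eif4h, at 8.98, 9.36 and 9.00 against 8.65, 8.85 and 8.76, had groups that did not overlap and a difference of 0.36 (SE 0.11, adjusted p = 0.139 in limma). Eif4b was at −0.12 (adjusted p = 0.669), with all 3 of its probe sets between −0.12 and −0.080.

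Eif4e, the cap-binding protein, was at 5.49, 5.81 and 5.63 at the sites and 5.49, 5.37 and 5.26 between them. The groups met at implantation array 1 and interimplantation array 1 without overlapping, and the difference of 0.27 did not pass (SE 0.10, adjusted p = 0.229 in limma). Eif4e2, a cap-binding homolog known as a repressor of translation, was at 0.32 (adjusted p = 0.199), although its other 3 probe sets lay between −0.0078 and 0.072. Eif4e3, a further homolog, was at −0.049.

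The scaffold proteins of the eIF4G family hold the complex together. Eif4g2 encodes a variant that lacks the binding site for eIF4E. Its brightest probe set was at 9.63, 9.81 and 9.62 against 9.24, 9.37 and 9.51, without overlap, and the difference of 0.31 did not pass (SE 0.095, adjusted p = 0.138 in limma). The next probe set, at 8.65, 8.93 and 8.66 against 7.99, 8.40 and 8.08, was called (0.59, SE 0.12, adjusted p = 0.0234), but not when implantation array 1, 2 or 3 or the third interimplantation array was removed (adjusted p between 0.0650 and 0.105). The other 2 of its 4 probe sets were at 0.17 and −0.024. Eif4g3 was at −0.024 (adjusted p = 0.945). Eif4g1, the founding member, was not analysed here.

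On their brightest probe sets, the inhibitors of eIF4E gave small differences. Eif4ebp1 was at 5.29, 5.48 and 5.38 at the sites and 5.37, 5.44 and 5.58 between them, and Eif4ebp2 at 6.29, 6.31 and 6.26 against 6.48, 6.36 and 6.25. The groups overlapped for both. The difference was −0.079 for Eif4ebp1 (95% interval −0.28 to 0.12) and −0.075 for Eif4ebp2 (95% interval −0.26 to 0.11). The probe sets of each gene disagreed in sign. The 3 of Eif4ebp1 ran from −0.20 to 0.21 and the 5 of Eif4ebp2 from −0.12 to 0.18, with 0 called. Eif4enif1, which shuttles eIF4E into the nucleus, was at −0.028 (95% interval −0.25 to 0.20).

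**Figure D2:**
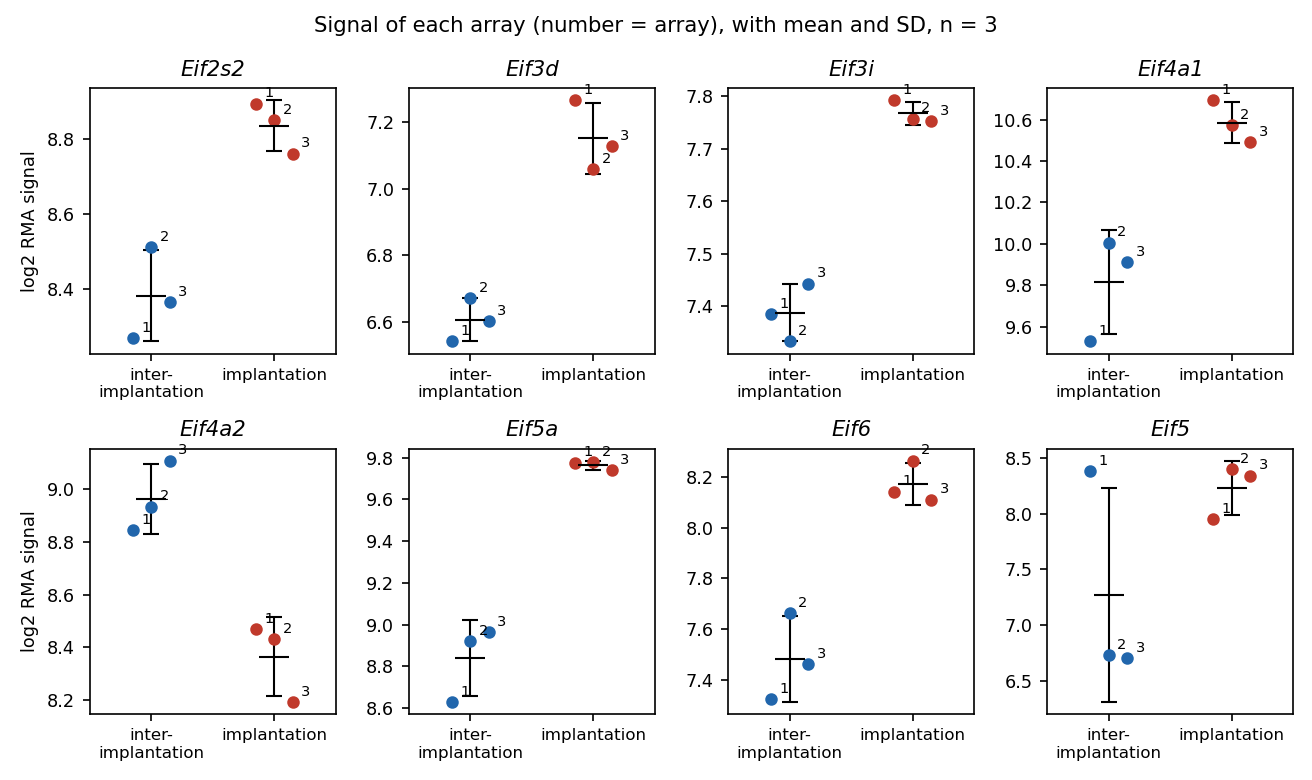
Log2 RMA signal on each of the 6 arrays for the 7 called initiation factor genes and for Eif5, with the array number beside each point and the mean and SD of 3 arrays in black; each panel has its own axis, which does not start at 0. In the 7 called genes the groups do not overlap, and in Eif5 interimplantation array 1 (8.38) lies with the implantation arrays.

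Eif6 had the third largest difference of the called genes. Its protein keeps the large ribosomal subunit from joining the small one too early and is also needed to make that subunit. Its single probe set was at 8.14, 8.27 and 8.11 at the sites and at 7.32, 7.66 and 7.46 between them. Each implantation array was above all interimplantation arrays. Eif6 rose by 0.69 (SE 0.099, adjusted p = 0.00343 in limma), from 7.48 ± 0.17 to 8.17 ± 0.081 (SD, n = 3), and it was called whichever array was left out (adjusted p up to 0.0234).

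For eIF3, the large scaffold on the small subunit, 11 subunit genes were measured: 2 were higher, 0 lower, and the median difference was 0.13. Eif3d, whose protein can bind the cap of certain messenger RNAs itself, was at 7.26, 7.06 and 7.13 at the sites and 6.54, 6.67 and 6.60 between them. The groups lay well apart, and Eif3d rose by 0.54 (SE 0.087, adjusted p = 0.00611 in limma). It was called whichever array was left out (adjusted p up to 0.0480).

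Eif3i, a subunit built of WD repeats, was at 7.79, 7.76 and 7.75 against 7.39, 7.33 and 7.44. The spread within each group was small, and Eif3i rose by 0.38 (SE 0.079, adjusted p = 0.0292 in limma). It passed in the fit that left out interimplantation array 1 but in no other fit with an array removed (adjusted p between 0.0579 and 0.138). It was also lost with the mean of its 2 probe sets (0.13, adjusted p = 0.431), since the other, at 2.12, 2.27 and 2.17 against 2.45, 2.16 and 2.30, was dim and gave −0.12. Eif3b, which binds Eif3i protein, was at 5.75, 5.72 and 5.92 against 5.47, 5.44 and 5.60, without overlap, and its difference of 0.29 did not pass (adjusted p = 0.143).

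The remaining eIF3 subunits went both ways without a call. Eif3k was at 0.28 (adjusted p = 0.269), Eif3e at 0.20 and Eif3l at 0.13. Eif3a, the largest subunit, and Eif3c and Eif3f were at −0.047, −0.058 and −0.028. Eif3m was at 8.07, 8.12 and 8.10 at the sites and 8.30, 8.28 and 8.27 between them, a tight pair of groups without overlap. Its difference of −0.19 (SE 0.077) did not pass (adjusted p = 0.285), nor did that of Eif3h (−0.23, adjusted p = 0.328), whose groups also did not overlap. A second probe set of Eif3h, dimmer than the Bacillus median of 2.68, had the opposite sign (0.21).

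For eIF2 and its partners, 1 of 8 genes was called. Eif2s2, the beta subunit of eIF2, was at 8.89, 8.85 and 8.76 at the sites and 8.27, 8.51 and 8.36 between them. All implantation arrays were higher, and Eif2s2 rose by 0.45 (SE 0.090, adjusted p = 0.0217 in limma). A further probe set, at 7.39, 7.66 and 7.44 against 6.97, 6.64 and 6.67, rose by 0.74 (SE 0.11, adjusted p = 0.00404). The other 4 were not called and ran from −0.22 to 0.40, and the mean of the 6 probe sets did not pass (0.26, adjusted p = 0.0832). The brightest lost its call when any implantation array or the third interimplantation array was removed (adjusted p between 0.0596 and 0.122).

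The gamma subunit genes Eif2s3x and Eif2s3y were at 0.015 and −0.063 and were not called. Eif2s3y, in mouse a gene of the Y chromosome, was the dimmest member, at 2.06, 2.09 and 2.02 against 2.07, 2.23 and 2.06, below the Bacillus median. Eif2s1, the subunit phosphorylated by the eIF2 kinases, was not analysed here. Of the 4 measured genes of eIF2B, the complex that reloads eIF2 with GTP, 0 were called by limma (1 had an unadjusted p under 0.05). That was Eif2b5, the catalytic subunit, at 5.03, 5.23 and 5.10 against 4.88, 4.93 and 4.66. Its groups did not overlap, and its difference of 0.30 did not pass (SE 0.097, adjusted p = 0.162). Eif2b1 was at 0.12, Eif2b4 at 0.0091 and Eif2b2 at −0.012. Eif2d, a factor that can place tRNA on the ribosome without GTP, was at 0.0077 (95% interval −0.17 to 0.19).

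Among the eIF1 genes, which act in the choice of the start codon, Eif1b, Eif1ax and Eif1a were at 0.015, −0.023 and −0.043. Their groups overlapped, and none of the 3 was called by limma (0 at an unadjusted p under 0.05). Eif5b, the GTPase of subunit joining, was at 5.67, 5.50 and 5.76 against 5.80, 5.76 and 5.69, a difference of −0.11 that did not pass (95% interval −0.31 to 0.089).

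Eif5, which makes eIF2 hydrolyse its GTP once a start codon is found, had the largest difference of all members but was not called. It was at 7.95, 8.40 and 8.34 at the sites and at 8.38, 6.73 and 6.70 between them. Interimplantation array 1 lay among the implantation arrays, while interimplantation arrays 2 and 3 lay more than 1 unit lower. The difference was 0.96 (SE 0.34, adjusted p = 0.206 in limma), and without interimplantation array 1 it was 1.51 and called (adjusted p = 4.86e-05). The other 3 probe sets of Eif5 did not show this split, with interimplantation arrays at 5.43, 5.19 and 5.41 in 1 of them, and their differences ran from −0.13 to 0.18. The same array stood apart from the other interimplantation arrays on the second principal component of all probe sets, at −20.7 against 11.6 and 7.67.

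**Figure D3:**
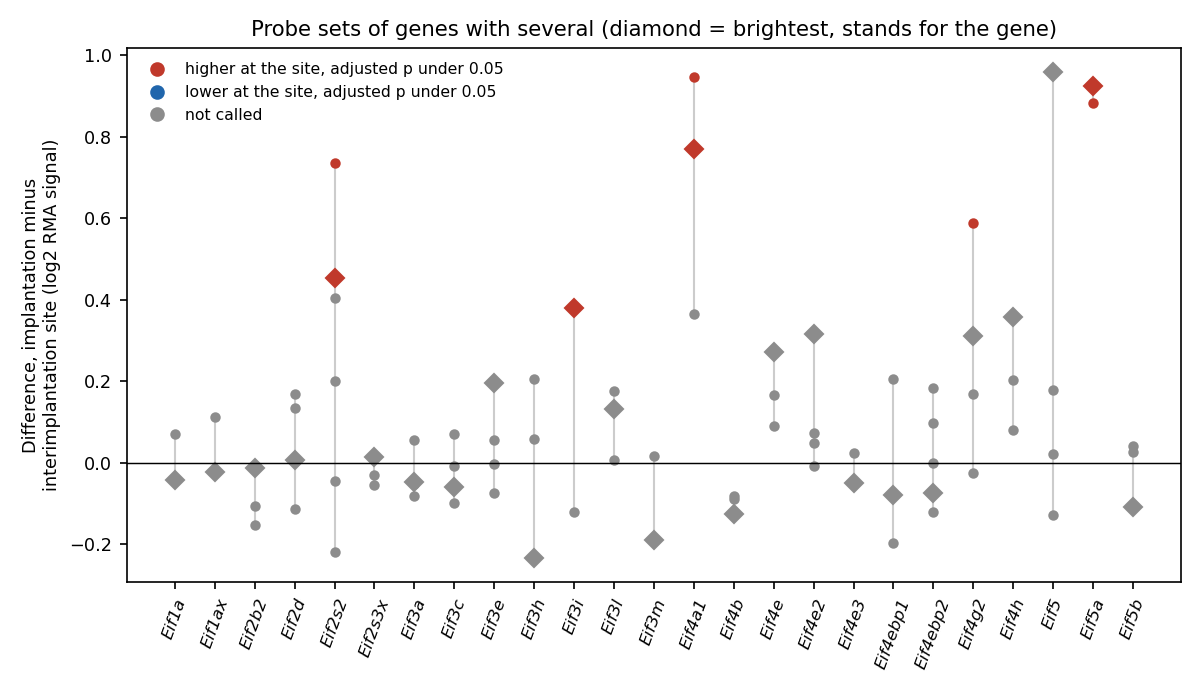
Difference between implantation and interimplantation sites (log2 RMA signal, implantation minus interimplantation) for each probe set of the 25 initiation factor genes with several; diamonds mark the brightest, which stands for the gene, and red marks probe sets called higher. Both probe sets of Eif5a and 2 of 3 of Eif4a1 were called, while those of Eif2s2, Eif4g2 and Eif5 spread widely.

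Over all 94 member probe sets, 10 were called higher and 1 lower, beside 1.26% and 1.05% of all tested probe sets. Of the 31 genes not called by their brightest probe set, 29 had a 95% interval that stayed within 1.5-fold in either direction. The exceptions were Eif5 and Eif4h, whose intervals reached further on the higher side (to 1.70 and 0.60). The 31 genes include the 11 members not above the brightest Bacillus control. For such dim probe sets a narrow interval around 0 need not mean that the RNA was unchanged.

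The other genes of translation were listed by step, and 60 of the 69 were measured. Of these 5 were higher and 1 was lower, against 1.36% and 1.18% of all genes, with 54 not called and a median difference of −0.0087. Of 14 helicases and other helpers of initiation 3 rose and 0 fell. Bzw2, which resembles the part of eIF5 that binds eIF2, was at 7.51, 7.53 and 7.59 at the sites and 6.82, 7.07 and 6.84 between them. It had the largest difference of the called genes in these lists (0.63, SE 0.091, adjusted p = 0.00342 in limma), and its groups lay well apart. With the mean of its probe sets, Bzw2 was at 0.24 and not called (adjusted p = 0.128).

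Ybx1, an abundant RNA-binding protein of cytoplasmic messenger RNA, was at 9.32, 9.27 and 9.19 against 8.54, 8.83 and 8.76 and rose by 0.55 (adjusted p = 0.00942 in limma), but without implantation array 1 it was not called (adjusted p = 0.0679). The helicase Ddx3x, at 8.62, 8.73 and 8.61 against 8.17, 8.34 and 8.27, rose by 0.39 (adjusted p = 0.0349). It passed in the fit that left out interimplantation array 2 but in no other fit with an array removed (adjusted p between 0.0605 and 0.130), and it was also lost with repeated quantile normalization (0.32, adjusted p = 0.0524). Pdcd4, an inhibitor of the eIF4A helicase, was at −0.10 (adjusted p = 0.695), and Ptbp1, an RNA-binding protein, at 0.39 (adjusted p = 0.0803).

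Of 6 poly(A) binding proteins and partners, 1 rose. Pabpc4 was at 7.21, 7.31 and 7.22 at the sites and 6.70, 6.67 and 6.94 between them, without overlap, and rose by 0.48 (SE 0.094, adjusted p = 0.0205 in limma). Its call was lost when any implantation array or interimplantation array 2 was removed (adjusted p between 0.0747 and 0.0913), and with the mean of its probe sets (0.35, adjusted p = 0.0605). Pabpc1, the main cytoplasmic protein of this kind, was at 0.24 (adjusted p = 0.251). Pabpn1, its nuclear counterpart, was at 9.85, 10.16 and 9.91 against 9.97, 9.37 and 8.73. Its interimplantation arrays differed widely, and its difference of 0.62 did not pass (SE 0.23, adjusted p = 0.226).

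Of 11 eIF2 kinases, phosphatase subunits and targets, 1 fell and 0 rose. Eif2ak4, the kinase that senses a lack of amino acids, was at 4.40, 4.52 and 4.29 at the sites and 4.72, 4.86 and 5.18 between them. Over all arrays it had a mean of 4.66, dimmer than the brightest Bacillus control. Eif2ak4 fell by 0.52 (SE 0.12, adjusted p = 0.0411 in limma). It passed in the fit that left out interimplantation array 1 but in no other fit with an array removed (adjusted p between 0.0805 and 0.183). On arrays scaled to the hybridisation controls it was at −0.12 (adjusted p = 0.603). The other kinases, Eif2ak1, Eif2ak2 and Eif2ak3, were at 0.0018, −0.084 and 0.027. Genes that are raised when eIF2 is phosphorylated were not called: Atf4 was at 0.093, Asns at 0.12, Ddit3 at −0.0087, Trib3 at −0.089 and Ppp1r15a at −0.015.

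None of the 14 genes of mTOR and MNK signalling was called by limma (1 had an unadjusted p under 0.05). That was Rheb, the GTPase that activates mTOR, at 0.28 (adjusted p = 0.273). Tsc2, its inhibitor, was at −0.21 (adjusted p = 0.374) and Mtor at −0.16 (adjusted p = 0.437). In the elongation list, where Dhps was the 1 gene of 10 to rise, Eef1a1 was at −0.18 and Eef2 at −0.10. Eef1e1, in that list but not itself an elongation factor, was at 0.33 (adjusted p = 0.114). With a mean of 4.38 over all arrays, Eef1e1 was dimmer than the brightest Bacillus control. In termination 0 of 5 genes were called by limma (2 had an unadjusted p under 0.05, beside 761 higher and 1074 lower of all 12393 genes). Gspt1, the release factor GTPase, was at 4.72, 4.76 and 4.98 against 4.37, 4.49 and 4.42, and its difference of 0.39 narrowly missed the threshold (adjusted p = 0.0509). Its mean over all arrays (4.62) was also dimmer than the brightest Bacillus control. Etf1, the factor that reads stop codons, was at 0.22 (adjusted p = 0.295).

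**Figure D4:**
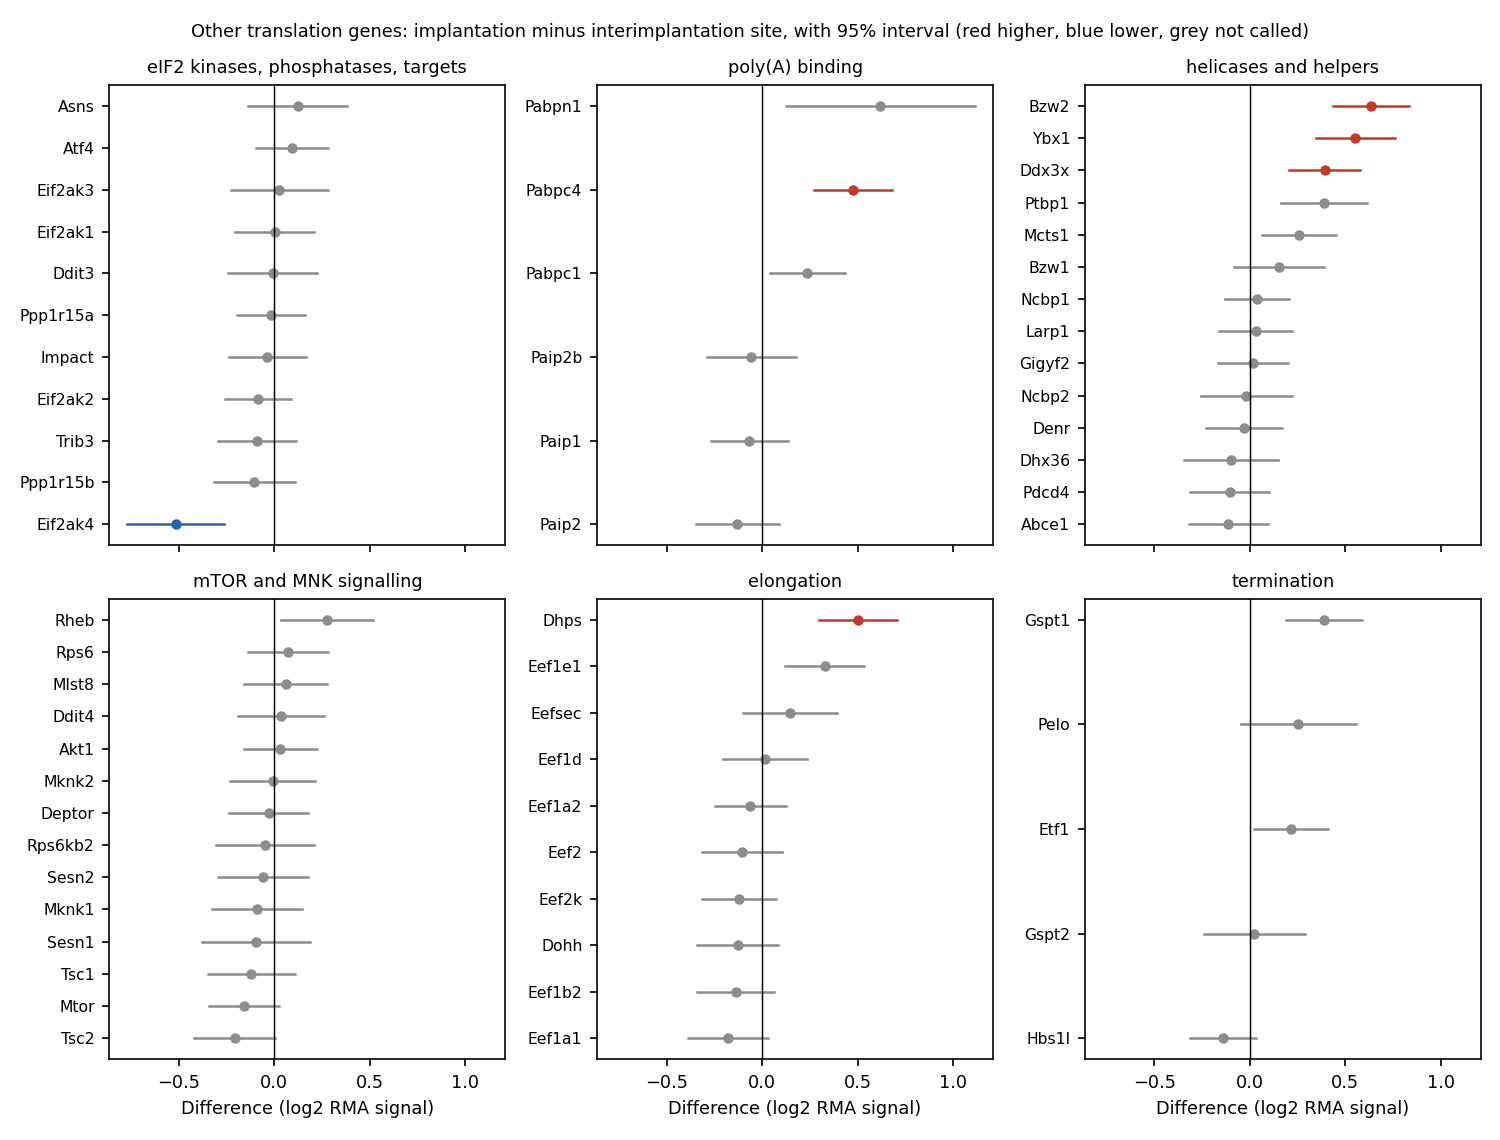
Difference between implantation and interimplantation sites (log2 RMA signal, implantation minus interimplantation) with 95% intervals for the 60 measured other genes of translation, in 6 panels by step. Bzw2, Ybx1, Ddx3x, Pabpc4 and Dhps were called higher (red) and Eif2ak4 lower (blue), and no gene of mTOR and MNK signalling was called.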

How the data were processed

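The authors deposited 1 log2 value per probe set and array. Per the submitters' processing notes these were made with Partek 6.6 and RMA. No source used here states the log base, and base 2 was taken because RMA usually gives it and the values span that range. RMA removes any shift shared by all probe sets of an array. Of 22690 probe sets, the 64 controls were left out, with no filter on level. The platform annotation gave 20380 probe sets 1 gene symbol, 691 several and 1555 none. Of the 38 member symbols, 34 are also symbols of the hamster RefSeq annotation (BCM_Maur_2.0).

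Groups were compared by limma 3.58.1 under R 4.3.3, with lmFit and eBayes, a two-sided test and group as the only term. Tested on simulated data (22626 probe sets, of which 50 were changed at each fold size), the fit called 6% of 1.25-fold, 70% of 1.5-fold, 94% of 2-fold and 100% of 3-fold changes. The simulated noise was normal and independent between probe sets, and the folds were of signal, not of hamster RNA. The rates for these data can therefore differ. The number of arrays limits the precision.

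The members and lists were chosen with earlier results of these data known. Named were all called members, all probe sets of Eif4a1 and Eif4a2, the 8 uncalled members with the largest absolute difference, members called by another probe set, a fixed set of central factors, and of each other list the called genes and the 2 with the smallest p. Further genes were named as examples after their values were seen. Alternatives were the scaling or a covariate from 18 hybridisation controls, repeated quantile normalization, trended and robust variance, array weights, the replicate number as a block, no dimmer or shared probe sets, averaging the probe sets of a gene, and each array left out. Shared probe sets were taken as those with the suffix _s_at, _x_at or _a_at. The suffix alone does not show a match to another gene. Promoter and protein sequences were not used here.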

Additional observations from a re-analysis of the deposited data

How the results depend on the processing

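The hybridisation controls were at 6.64 ± 0.17 on the implantation and 7.03 ± 0.27 on the interimplantation arrays (SD, n = 3). Scaling to them gave 13 higher and 0 lower initiation factor genes, with a median of 0.41, and 9 higher and 0 lower other translation genes. It moved the median of all probe sets from −0.020 to 0.38 and turned 16 of the 38 members, none of them called, positive. All probe sets split into 752 higher and 13 lower, against 284 and 238. Entered as a covariate, the control level left 1 initiation factor gene higher and 0 lower, and 0 higher and 0 lower other translation genes, with 77 higher and 130 lower among all probe sets. Differences of uncalled genes there were 0.52 for Eif3d, 0.42 for Eif3i, −0.68 for Eif4a2 and 0.56 for Dhps, close to or past their values without the covariate, and 0.53 for Eif4a1, 0.45 for Eif6 and 0.30 for Eif2s2, which were smaller. That model has 1 residual degree of freedom fewer. The control level also differed between the groups, so group and control level are partly confounded in it. A call lost there does not by itself show that a difference follows the control level.

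Without shared probe sets, 28 members were left, 5 of the 7 called members remained called, and 0 other translation genes were lower. Eif5a, Eif6, Pabpc4 and Eif2ak4 have only probe sets with the suffix _s_at, _x_at or _a_at and were not tested there. Eif4a1 was represented by its next probe set (0.95), and Eif4g2 was called by its next probe set (0.59, adjusted p = 0.0266). Averaging the probe sets of each gene, 2 other translation genes were higher, Ddx3x and Ybx1. With repeated quantile normalization, trended and robust variance, array weights, the replicate block or no dimmer probe sets, the same 7 members were called, and array weights added Eif5 (1.13, adjusted p = 0.0452). The replicate block gave 6 higher and 1 lower. Deviations of same-numbered arrays correlated at −0.090, 0.070 and −0.028, so no pairing by number was detected; whether it exists is not settled by these values.

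With 1 array left out, 4 to 7 initiation factor genes were higher and 0 to 1 lower, with a median of 0.0088 to 0.048. Of the other translation genes 1 to 5 were higher and 0 to 1 lower. The only lower member, Eif4a2, missed the threshold without implantation array 3. Eif5a, Eif4a1, Eif6 and Eif3d were called in each of these 6 fits.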

Other observations

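Another 5 probe sets carried the symbol of an initiation factor beside that of a second gene and were not used to name a gene. Their differences ran from −0.14 to 0.50 on the log2 scale, 3 were positive, and 1 was called higher (lowest adjusted p = 0.00722 in limma, highest 0.801).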
